A study of Mus musculus with 6 samples.

Results

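The zinc finger transcription factors Egr1, Egr2 and Egr3, the orphan nuclear receptors Nr4a1, Nr4a2 and Nr4a3, the Egr corepressors Nab1 and Nab2, the synaptic immediate early gene Arc and the upstream factor Srf were examined by RNA-seq in mouse neural stem cells (NSCs) grown at 21% O2. These are 10 genes of the 52438 that carry values in the deposited table, and each was found by its symbol. They were chosen on the difference between Setd5+/- and WT in these same samples, so their values in this comparison are a description, no test was run on them, and the counts given for them support nothing beyond that. NSCs came from the embryonic mouse telencephalic cortex. WT cells were compared with Setd5+/- cells, in which 1 copy of Setd5 had been mutated with CRISPR-Cas9. Both were adherent cultures on Matrigel, in a neural medium with EGF and bFGF, and were scraped near confluence. The labels list 3 samples of each genotype, and the column names of the Setd5+/- samples carry the name of 1 clone. The sources used here do not give the time between the last change of medium and harvest for either genotype.

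Immediate early genes are transcribed within minutes of a growth factor, depolarization or stress, from factors already present in the cell, and their mRNAs are short-lived. Growth factor signals reach them through the Ras, Raf, MEK and ERK kinases, which phosphorylate cofactors of SRF on CArG boxes, and cAMP and calcium signals reach them through CREB on cAMP response elements. EGR proteins bind GC-rich sites and are held back by NAB1 and NAB2, which recruit the nucleosome remodelling and deacetylase complex NuRD. NR4A receptors act without a classical ligand, so their abundance sets much of their activity. In the brain the Egr and Nr4a genes and Arc are widely used as markers of recent neuronal activity, and in dividing cells growth factors are well-known inducers of Egr1.

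The promoters of 4 members show the elements through which these signals act. RefSeq sequences of the GRCm38.p6 assembly, 250 bases upstream of each annotated start, covered 7 of the 10 members, Egr2 with 5 starts. They are printed 5′ to 3′ on the gene's own strand and end at the base before the start, with CArG boxes in capitals for Egr2 and Srf and each TGACG, the core of the cAMP response element, in capitals for Nr4a1 and Nr4a3. A TGACG on the other strand reads CGTCA. The windows lie at chr10:67537316-67537565 on the plus strand for Egr2, at chr17:46556163-46556412 on the minus strand for Srf, at chr15:101266596-101266845 on the plus strand for Nr4a1 and at chr4:48045055-48045304 on the plus strand for Nr4a3.
Egr2: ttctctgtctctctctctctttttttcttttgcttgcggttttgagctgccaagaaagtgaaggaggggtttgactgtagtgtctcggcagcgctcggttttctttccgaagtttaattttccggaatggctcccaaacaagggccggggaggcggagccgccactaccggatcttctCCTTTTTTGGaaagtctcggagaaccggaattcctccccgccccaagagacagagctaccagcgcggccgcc
Srf: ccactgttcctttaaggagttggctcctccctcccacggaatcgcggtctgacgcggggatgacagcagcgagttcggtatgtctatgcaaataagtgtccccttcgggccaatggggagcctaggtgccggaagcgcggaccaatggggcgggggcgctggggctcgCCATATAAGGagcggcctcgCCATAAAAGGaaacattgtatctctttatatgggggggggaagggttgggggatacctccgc
Nr4a1: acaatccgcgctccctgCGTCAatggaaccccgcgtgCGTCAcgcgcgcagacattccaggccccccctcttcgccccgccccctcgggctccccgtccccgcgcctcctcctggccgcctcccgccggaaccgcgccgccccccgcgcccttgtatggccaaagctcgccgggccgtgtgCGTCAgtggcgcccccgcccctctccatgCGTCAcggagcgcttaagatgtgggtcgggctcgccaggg
Nr4a3: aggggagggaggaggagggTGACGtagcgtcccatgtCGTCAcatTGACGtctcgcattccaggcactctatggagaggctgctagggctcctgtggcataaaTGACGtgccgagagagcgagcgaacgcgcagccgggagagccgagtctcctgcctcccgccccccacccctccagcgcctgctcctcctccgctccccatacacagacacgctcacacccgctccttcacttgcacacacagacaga

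A CArG box, the site of SRF, was found in the windows of 2 members, Egr2 and Srf, against 1.47% of 32851 RefSeq windows of the same length. It lay 72 bases before the printed start of Egr2. The 3 windows of the starts further downstream in Egr2 overlap and share another box, so that 4 of that gene's 5 windows held one. The window of Srf, whose own promoter carries sites for its product, held 2. The motif GCGNGGGCG, a site of EGR proteins, was present in the windows of 4 members, Nab1, Nr4a1, Nr4a2 and Srf, against 4.7% of all windows. TGACG stood in the windows of 6 members, against 17.8%, and was missing only from that of Nab2 among the 7. It occurred 4 times each in the windows of Nr4a1, Nr4a2 and Nr4a3. AAAGGTCA, a site of NR4A receptors, was in no member's window, against 1.34% of all windows. The counts are of member genes with a match in any of their windows, and Egr2 had 5, whereas the percentages are of single windows. The 2 are thus not on the same footing. All 4 motifs were searched on both strands, and overlapping matches of different motifs were both kept. A match is a description of the letters in the window, and the files hold no binding data.

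**Figure D1:**
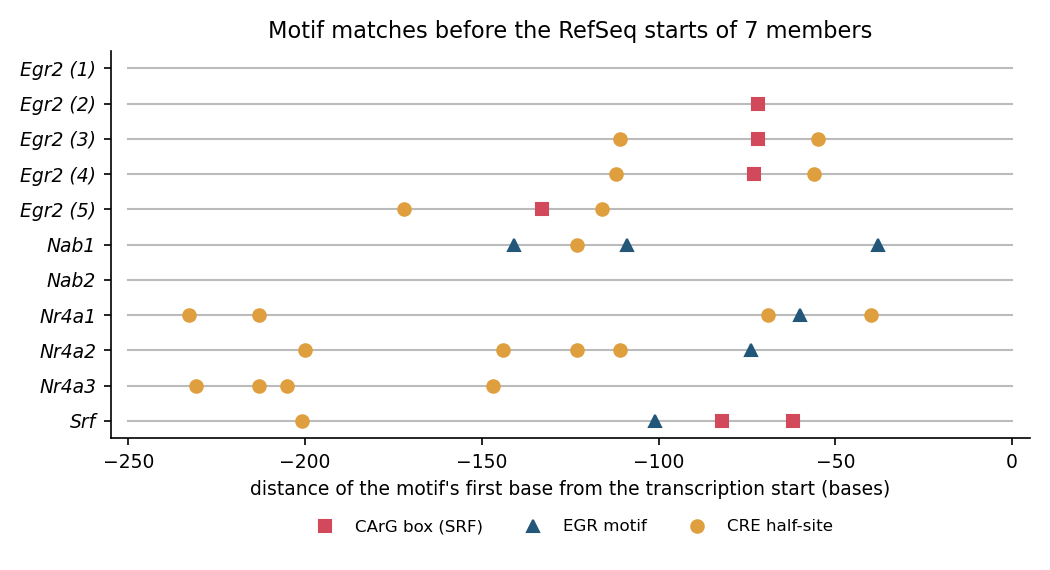
Positions of motif matches in 11 windows of 250 bases before the RefSeq starts of 7 members. The x axis is the distance of the motif's first base from the start in bases, each grey line is 1 window (5 starts for Egr2), squares are CArG boxes, triangles are GCGNGGGCG and circles are TGACG on either strand. The windows of the 3 Nr4a genes hold 4 circles each, and that of Nab2 holds no match.

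Values are normalized counts, the reads counted on a gene divided by a size factor of the sample. Between 9995980 and 10004948 reads were counted on genes per WT sample, and between 7143309 and 7146147 per Setd5+/- sample. The 3 samples of a genotype differed by no more than random sampling, with a chi-square per degree of freedom over genes of 0.961 to 0.986 in 6 pairs, against 34.9 to 35.0 in 9 pairs across genotypes, so they were treated as parts of 1 library. There is therefore no replicate check of any difference below, and a difference between the 2 libraries cannot be told apart from one between cultures or clones. The column names also carry a different tag for each genotype in the place of the sequencing lane. A lane difference cannot be told apart from genotype either. A gene is called higher or lower when it differs at least 2-fold, on log2(mean + 1), among the 16266 genes whose mean over the 6 samples reached 10 normalized counts. Folds carry exact 95% binomial intervals on read pairs, which cover counting error only and hold for the ratio without the added 1. Setd5 itself read 2498, 2749 and 2780 normalized counts in the 3 WT parts against 2151, 1990 and 2055 in the 3 Setd5+/- parts, a log2 fold change of -0.37 (interval -0.44 to -0.30).

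Of the 10 members, 9 passed the filter on low values. At least 2-fold lower in Setd5+/- were 6 of these, Egr1, Egr2, Egr3, Nr4a1, Nr4a2 and Arc, where 6.14% of all genes tested were lower by that rule. None was at least 2-fold higher, against 10.3% of all genes. Nab1, Nab2 and Srf lay between. The median log2 fold change of the 9 was -3.97, and over all genes tested it was -0.02. The shares and the median over all genes are printed for scale, because the members were picked on this comparison. Egr2, Egr3 and Arc also passed the filter only through WT, as their means in Setd5+/- were 4.37, 1.59 and 2.38 normalized counts. The 10 genes together took 44501 reads in WT and 2295 in Setd5+/-, or 0.148% and 0.0107% of the reads counted. Egr1 alone held 80.3% of the members' reads in WT and 7.67% in Setd5+/-. In 9 of the 10 genes the values of the WT samples and of the Setd5+/- samples did not overlap, and Nr4a3 was the exception. The same held for 65.3% of all genes tested, 32.9% with Setd5+/- as the lower, as the samples are parts of 1 library per genotype, so nothing is read from this count.

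**Figure D2:**
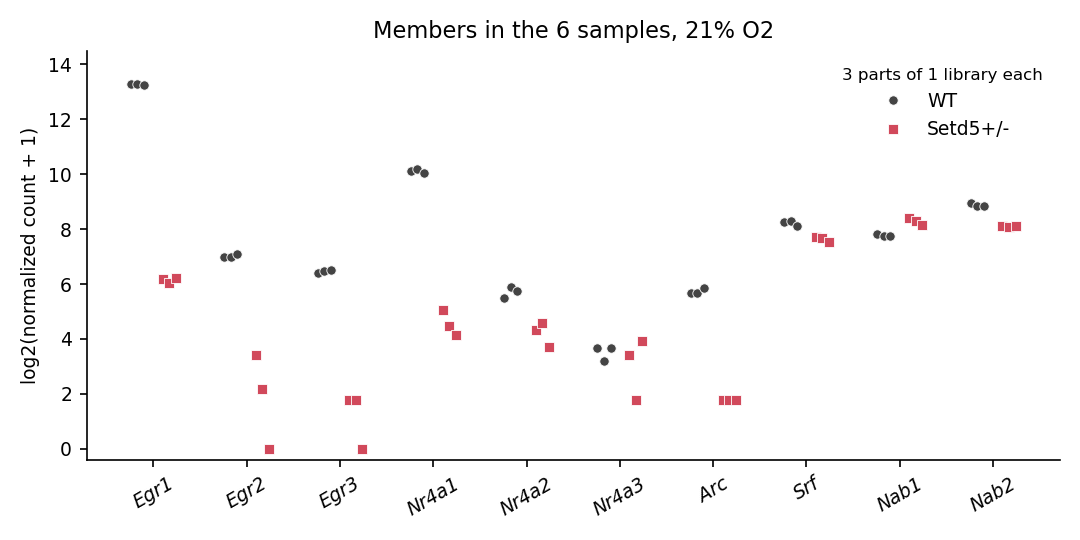
Normalized counts of the 10 members in the 6 samples, on a log2(normalized count + 1) axis. Circles are the 3 WT samples and squares the 3 Setd5+/- samples, each set being parts of 1 library. Egr1 lies near 13 in WT and near 6 in Setd5+/-, whereas Srf, Nab1 and Nab2 lie between 7 and 9 in both.

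**Figure D3:**
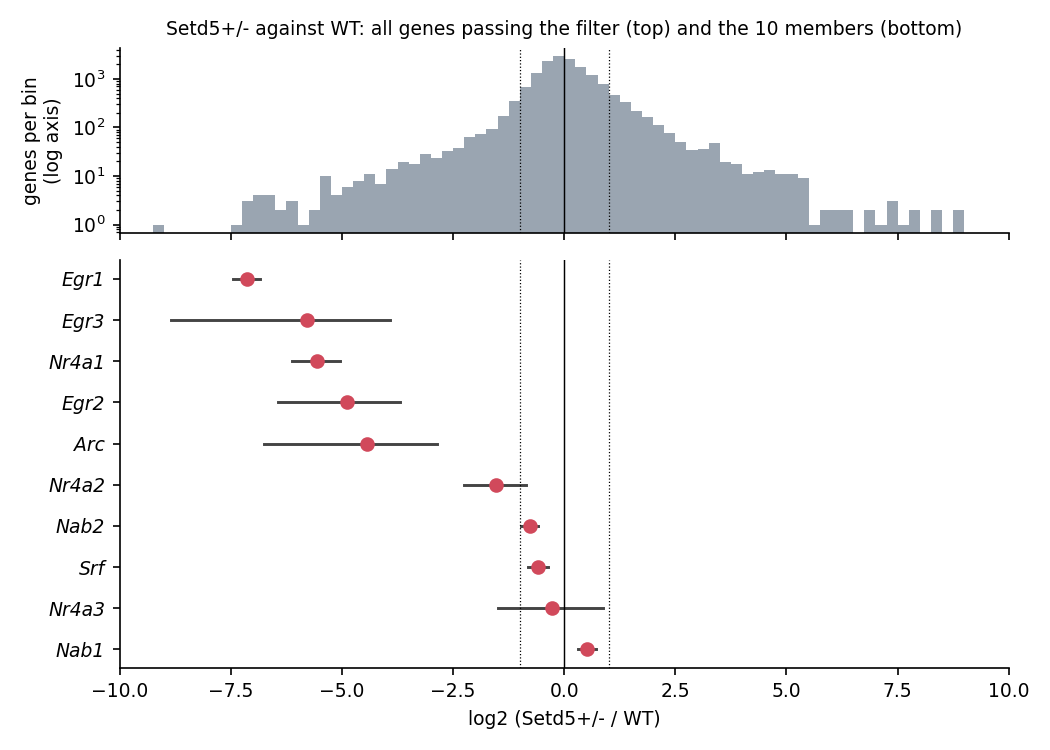
The upper panel counts the 16266 genes passing the filter by log2 fold change on log2(mean + 1), on a log axis. The lower panel gives each member's log2 ratio of Setd5+/- over WT without the added 1, as a point with its exact 95% counting interval as a bar, and dotted lines mark 2-fold. Egr1, Egr3, Nr4a1, Egr2 and Arc lie left of the dotted line with their whole intervals, and the interval of Nr4a2 crosses it.

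Egr1 (ENSMUSG00000038418, chr18:34859823-34864984, plus strand) encodes the most widely used early growth response factor. It read 9925, 10005 and 9666 normalized counts in the 3 WT parts against 71.5, 64.3 and 73.9 in the 3 Setd5+/- parts. The level in WT was 141-fold that in Setd5+/- (interval 115 to 176), a log2 fold change of -7.12 from 35734 and 176 reads. This was the 5th lowest of the 16266 fold changes. Gene positions here and below are those of the GENCODE annotation of the mm10 assembly. Per kilobase of annotated exon, Egr1 ranked 52nd of 12490 protein-coding genes in WT and 10407th in Setd5+/-.

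Egr2 (ENSMUSG00000037868, chr10:67535475-67542188, plus strand), also called Krox20 and known for its roles in hindbrain patterning and myelination by Schwann cells, read 126.0, 124.9 and 136.6 normalized counts in the WT samples. In the Setd5+/- samples it read 9.53, 3.57 and 0, from 11 reads in all. Its level was 29.6-fold lower (interval 13.0 to 86.1), a log2 fold change of -4.60. Egr3 (ENSMUSG00000033730, chr14:70077203-70082614, plus strand), which acts in muscle spindle development and in activity-dependent transcription, read 83.8, 88.5 and 91.1 normalized counts in WT and 2.38, 2.38 and 0 in Setd5+/-. Its 318 and 4 reads gave a level 55.3-fold lower with a wide interval, 15.1 to 460.3, and a log2 fold change of -5.10. The values of the 3 Egr genes did not overlap between the genotypes, as for 32.9% of all genes in this direction, and the depth in Setd5+/- sets how closely the size of the Egr2 and Egr3 differences is known.

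The NAB corepressors moved apart from each other. Nab2 (ENSMUSG00000025402, chr10:127660918-127668568, minus strand), which EGR proteins themselves induce, read 488.4, 463.3 and 459.6 normalized counts in the 3 WT parts against 274.1, 271.5 and 276.4 in the 3 Setd5+/- parts. It was 1.72-fold lower (interval 1.51 to 1.95), short of the 2-fold line. Nab1 (ENSMUSG00000002881, chr1:52457294-52500679, minus strand), the more constantly expressed corepressor, read 227.2, 213.4 and 214.5 in WT and 334.9, 310.8 and 285.9 in Setd5+/-. It was 1.42-fold higher (interval 1.23 to 1.64), with a log2 fold change of 0.51. Nab1 lies on chromosome 1, where 827 of 1044 genes tested were higher in Setd5+/- and the median log2 fold change was 0.53, against -0.04 for 15222 genes on the other chromosomes. The value of Nab1 was close to the median of its chromosome, and the part of this chromosome-wide difference in it was not tested.

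Reads on Nab2 need care, since annotated genes on the opposite strand share exon bases with it and the strand setting of the counting is not given in the sources used here. Gm16229, an antisense transcript, shares 1050 exon bases and held 712 reads in WT and 283 in Setd5+/-, in the same direction as Nab2. Nemp1, a nuclear envelope protein gene, shares 151 exon bases and moved the other way, with 594 and 1447 reads. Stat6, a transcription factor of cytokine signalling whose end meets that of Nab2 over 40 bases, had a mean of 3.31 normalized counts in WT and 58.4 in Setd5+/-, a log2 fold change of 3.78 (interval 2.95 to 5.63). Reads of these genes and of Nab2 cannot be told apart within the shared bases.

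Nr4a1 (ENSMUSG00000023034, chr15:101254269-101274795, plus strand), also called Nur77, was the Nr4a gene with the most reads. It read 1109, 1154 and 1044 normalized counts in the 3 WT parts against 32.2, 21.4 and 16.7 in the 3 Setd5+/- parts, 47.0-fold lower (interval 32.8 to 70.2). Its log2 fold change of -5.50 was the 22nd lowest of 16266. Nr4a2 (ENSMUSG00000026826, chr2:57106830-57124003, minus strand), or Nurr1, which midbrain dopamine neurons need, read 43.9, 57.9 and 53.0 in WT and 19.1, 22.6 and 11.9 in Setd5+/-. It was 2.89-fold lower, with an interval of 1.81 to 4.80 that reaches below 2-fold. Nr4a3 (ENSMUSG00000028341, chr4:48045153-48086447, plus strand), or Nor1, read 11.6, 8.27 and 11.6 in WT and 9.53, 2.38 and 14.3 in Setd5+/-. Its values overlapped between the genotypes, its mean of 9.61 fell just under the filter, and from 38 and 22 reads a log2 fold change between -1.48 and 0.88 could not be narrowed. Within this family of 3 receptors the size of the difference therefore ranged from 47.0-fold to one not detectable at this depth.

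Arc (ENSMUSG00000022602, chr15:74669083-74672570, minus strand) encodes a synaptic protein that regulates AMPA receptor endocytosis and forms virus-like capsids. It read 49.8, 49.6 and 56.3 normalized counts in the 3 WT parts, against 2.38 in every Setd5+/- part, which is 1 read pair each. From 188 and 6 reads it was 21.8-fold lower (interval 7.23 to 107.5). Srf (ENSMUSG00000015605, chr17:46548329-46556175, minus strand), which encodes serum response factor, read 303.5, 313.5 and 277.4 in WT and 211.0, 201.3 and 183.5 in Setd5+/-. It was 1.502-fold lower (interval 1.29 to 1.75), with a log2 fold change of -0.58, the 2525th lowest of 16266. Its difference was thus smaller than that of Egr1, Egr2 and Arc, which SRF is known to drive.

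The order of the members by normalized counts per kilobase of exon changed between the libraries. In WT the order was Egr1 with 2200, Nr4a1 with 314.2, Nab2 with 160.0, Srf with 103.1, Nab1 with 53.3, Egr2 with 38.02, Egr3 with 19.9, Arc with 17.0, Nr4a2 with 12.7 and Nr4a3 with 1.75, and no neighbours in it overlapped in their 3 values. In Setd5+/- the regulators came first, Nab2 with 93.2, Nab1 with 75.7 and Srf with 68.6, of which Nab1 and Srf overlapped. Egr1 followed with 15.6, ahead of Nr4a1 with 6.68 and Nr4a2 with 4.40, which overlapped each other. Nr4a3 with 1.46 overlapped Egr2 with 1.29, which in turn overlapped Arc with 0.779. Egr3 came last with 0.361. Arc held 2, 2 and 2 reads in the Setd5+/- parts and Egr3 held 2, 2 and 0. Their order therefore rests on annotated exon length and a single read pair, and is not resolved.

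The make-up of the families by this same scale shifted as well. Egr1 made up 97.4% of the summed level per kilobase of the 3 Egr genes in WT and 90.4% in Setd5+/-. Nr4a1 went from 95.6% to 53.3% of the Nr4a sum, while Nr4a2 went from 3.87% to 35.1% and Nr4a3 from 0.533% to 11.6%, with the sum itself going from 328.6 to 12.5. Nab1 went from 25.0% to 44.8% of the Nab sum, which changed little in comparison, from 213.2 to 168.9. Egr transcripts per kilobase summed to 10.6 times the Nab sum in WT and to 0.102 times in Setd5+/-. The Nr4a shares in Setd5+/- come from only 59, 45 and 22 reads on Nr4a1, Nr4a2 and Nr4a3, so they are imprecise. Neither Nr4a2 nor Nr4a3 rose in level, and their shares grew as that of Nr4a1 shrank. All these shares rest on 1 library a genotype and on annotated exon lengths that the expressed isoforms may not fill.

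**Figure D4:**
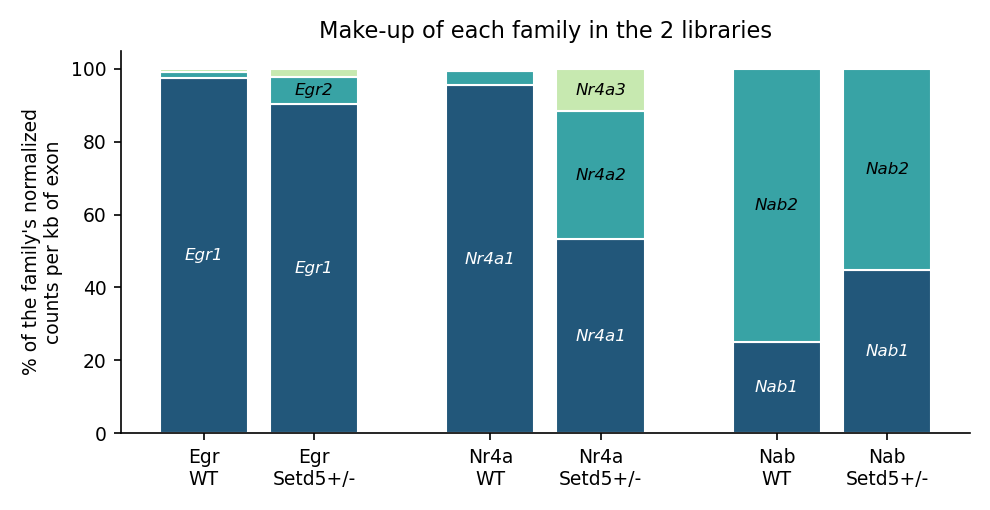
Share of each gene in its family's summed normalized counts per kilobase of exon, in percent, with 1 bar for the WT library and 1 for the Setd5+/- library. Nr4a1 makes up 95.6% of the Nr4a bar in WT and 53.3% in Setd5+/-, where Nr4a2 makes up 35.1% from 45 reads.

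The members are mostly compact genes. Their medians were 7749 bases in length, 7 exons in the annotated transcript with the most exons and 3784 exon bases. The medians were 25497, 9 and 4632 for the 12490 protein-coding genes that passed the filter. Nab1 with 43386 bases and Nr4a3 with 41295 were longer than that median length. The genes nearest to Egr1 in level in both libraries, by distance on log2(mean + 1) over the 2 values, were Fos, Spry1 and Miat. Fos, a partner of Jun in AP-1, lay at a distance of 0.972, going from 5115 to 60.0 normalized counts. Spry1, an inhibitor of receptor tyrosine kinase signalling, and the long noncoding RNA Miat were already far off, at 2.87 each, with 2269 and 2338 in WT and 270.8 and 280.0 in Setd5+/-.

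Other immediate early genes did not move as a block. Of 39 listed, 38 passed the filter, 14 were at least 2-fold lower, 8 were at least 2-fold higher and 16 lay between, with a median log2 fold change of -0.42. The largest fall was that of Fosb, an AP-1 subunit, from 1343 to 9.53 normalized counts, a log2 fold change of -7.00 (interval -8.09 to -6.33). Egr4, the fourth Egr gene and no member of the set above, went from 59.4 to 2.78, and Junb, another AP-1 subunit, from 760.0 to 43.3, both named after their values were seen. The largest rise was that of Ptgs2, the inducible cyclooxygenase, from 5.25 to 40.1, a log2 fold change of 2.72 (interval 1.92 to 4.11). Of the 8 that were higher, 4 lie on chromosome 1, where 5 of the 38 genes lie. Over the other 33 genes, 14 were at least 2-fold lower and 4 higher, with a median of -0.72. The 4 higher genes off chromosome 1 were Cebpb, Gadd45b, Nfil3 and Klf4, with log2 fold changes of 2.07, 1.39, 1.37 and 1.31, named after their values were seen.

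Genes tied to neuronal activity were mostly low or moved little. Of 15 listed, 8 passed the filter, with 1 lower, 2 higher and 5 between, and a median of -0.23. Dusp4, a phosphatase of ERK in the nucleus, went from 119.0 to 14.7 normalized counts, a log2 fold change of -2.93. Bdnf, a neurotrophin and a target of CREB, went the other way, from 29.5 to 119.1, a log2 fold change of 1.98 (interval 1.55 to 2.49). The lower level of Egr1, Egr2, Egr3, Nr4a1 and Nr4a2 was therefore not shared by every gene of the activity response.

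Most listed upstream regulators and partners that passed the filter lay within 2-fold. The members were picked on this comparison, so the sizes of their differences are not weighed against these. All 14 kinases of the ERK pathway passed the filter and none reached 2-fold, with a median log2 fold change of -0.11 and a range from -0.56 for Rps6ka1 to 0.35 for Rps6ka3. The 13 NuRD subunits, the partners of NAB, also lay between, with a median of -0.29. Of the 6 SRF cofactors 5 passed, none reached 2-fold and the median was 0.46. Among 11 genes of CREB, its relatives and coactivators, only Rps6ka5, a kinase that phosphorylates CREB and histone H3, reached 2-fold, with a log2 fold change of 1.02 (interval 0.77 to 1.28). Of the 3 RXR receptors, partners of NR4A1 and NR4A2, Rxra was higher with a log2 fold change of 1.196, Rxrb lay between and Rxrg was at 0 in both libraries. These are mRNA levels, and no kinase activity or phosphorylation was measured.

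Genes downstream of SRF and EGR moved in both directions. Of 20 cytoskeletal genes driven by SRF with its MRTF cofactors, 15 passed, 4 were lower and 4 higher, with a median of -0.09. Actg1, a cytoplasmic actin whose processed pseudogenes can share its reads, so that its level is uncertain, went from 994.2 to 50.8 normalized counts, a log2 fold change of -4.26. Tagln2, an actin-binding protein gene on chromosome 1, went from 133.9 to 475.3, a log2 fold change of 1.82. Of the known EGR targets that are not members, 14 passed, 2 were lower, 2 higher and 10 between, with a median of 0.05. Both higher ones lie on chromosome 1. The larger rise was that of Fn1, the gene of fibronectin, from 67.9 to 2991 normalized counts, a log2 fold change of 5.44 (interval 5.20 to 5.73), and the larger fall was that of Id4, an inhibitor of basic helix-loop-helix factors, from 216.5 to 73.5, a log2 fold change of -1.55.

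**Figure D5:**
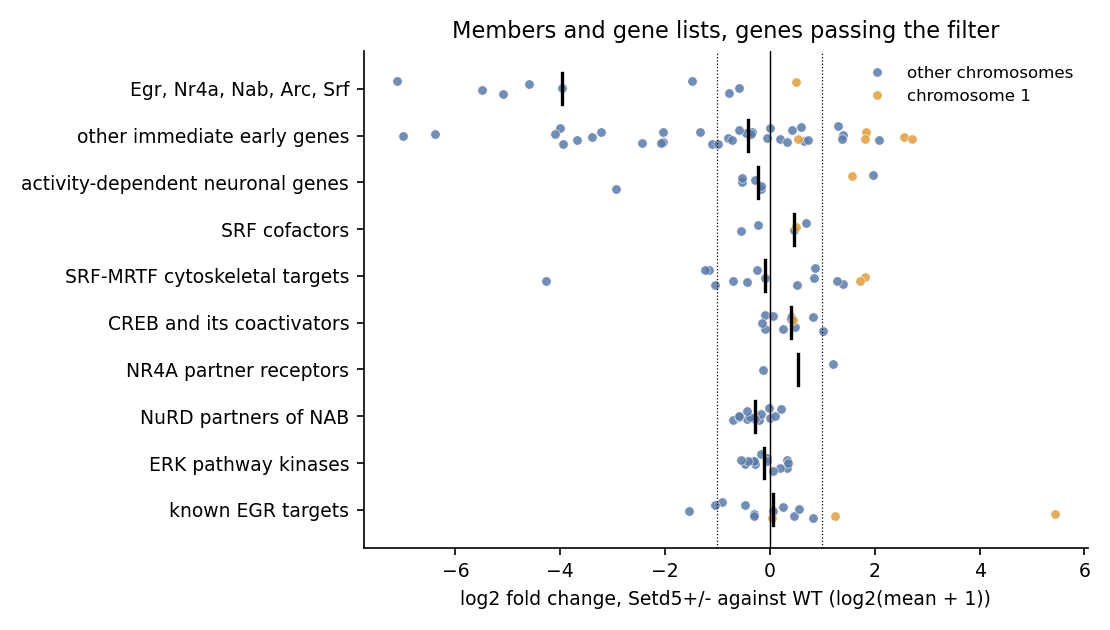
Log2 fold change of Setd5+/- against WT on log2(mean + 1) for the 9 members that passed the filter and for the genes of 9 lists that passed. Points are genes, with chromosome 1 in orange, black bars are medians and dotted lines mark 2-fold. The members were picked on this comparison, so their median of -3.97 is not weighed against the lists. The median of the other immediate early genes is -0.42, and no ERK kinase or NuRD subunit passes a dotted line.

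Markers of cell types were read in the same libraries. All 10 NSC markers passed the filter, with 3 at least 2-fold lower, none higher and a median of -0.16. The 3 lower ones were Fabp7, from 36015 to 11490 normalized counts, Hes1, from 475.7 to 223.6, and Prom1, from 24.6 to 2.38. The others lay within 2-fold and moved in both directions. Nes went from 2378 to 1951, Sox2 from 3119 to 2732 and Sox9 from 1451 to 1326. Vim rose from 9095 to 13822, Pax6 from 402.0 to 529.7 and Hes5 from 1222 to 1650. Slc1a3 was almost the same, with 20983 and 21117. Markers of the labelled cell type were thus present in both libraries, some at different levels. Neuronal markers were lower in sum. Their summed level was 1139 to 1224 in the WT samples and 193.1 to 209.6 in the Setd5+/- samples, 6 of 12 passed, 4 of these were at least 2-fold lower and the median was -2.28. Gad1, an enzyme of GABA synthesis, held most of that sum, with 747.9 in WT and 96.1 in Setd5+/-, and Slc17a6, Neurod1 and Neurod6 were at 0 in both libraries. The part of neuronal cells in the lower level of Egr1, Egr2, Egr3, Nr4a1, Nr4a2 and Arc was not tested. In bulk RNA, fewer cells of a type and less RNA per cell cannot be told apart.

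Glial markers changed too. Of 7 astrocyte markers 3 were higher and 2 lower, with Gfap going from 17.1 to 263.3 normalized counts and Slc1a2, a glutamate transporter, from 4678 to 1225. Of 8 oligodendrocyte lineage markers 7 passed and 2 were lower, and their summed level was 40997 to 41788 in WT and 23688 to 24533 in Setd5+/-. Sox10, which glia of the oligodendrocyte and Schwann cell lineages need and which works with Egr2 in Schwann cells, went from 298.2 to 1.59, with 1080 and 4 reads. Of 8 Schwann and neural crest markers 4 passed, with 1 higher and 2 lower. Few markers of other cell types passed the filter, 1 of 7 microglial, 1 of 6 endothelial and none of 7 mesenchymal. The microglial one, Csf1r, read 98.0 normalized counts in WT and 53.6 in Setd5+/-. The endothelial one, Kdr, read 6.35 and 17.9. The part of these glial differences in the members' values was not tested.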

How the data were processed

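The 6 samples are RNA-seq of NSCs kept at 21% O2, of which the labels give 3 as WT and 3 as Setd5+/-. Per the labels and methods, the authors trimmed reads with Trimmomatic, aligned them with Bowtie2 to mm10 and used DESeq2. The counting program and its strand setting are not given in the sources used here. The authors deposited normalized counts, reads divided by a size factor of each sample. Many values had lost their decimal point. It was put back so that each value is whole in reads. In 1116 of 52438 genes the deposited mean placed it. All 52438 restored genes average to that mean, and in simulated data 99.998% of 314628 values were recovered. One read was worth 0.829, 0.827 and 0.828 normalized counts in WT and 1.19 in each Setd5+/- sample. Both ends of a pair were counted, with a variance over the mean of 1.95 and 1.94, so intervals use pairs. The authors' own comparison, columns of log2 fold changes, their errors, a test statistic and p-values, was not used.

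Python 3.11.15 with numpy 2.4.6, pandas 2.3.3 and scipy 1.17.1 was used. Members and lists were chosen with earlier results of these data known. Named are the members, Setd5, Stat6 and the 3 genes nearest to the lower member with the most reads. So are the largest rise and fall of each list other than the cell type markers, where at least 2-fold. Outside this rule, the genes that overlap Nab2, the ends of the ERK list, the RXR genes and some cell type markers are also named, chosen after their values were seen. Levels per kilobase use GENCODE M21 exons. No test was made, since the 3 samples of a genotype are parts of 1 library. Scaling, pseudocount, filter, fold and left-out samples were varied.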

Additional observations from a re-analysis of the deposited data

How the results depend on the processing

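Of 130 recomputed log2 fold changes of members, 129 stayed within the gene's counting interval. The exception was Egr3, which went from -5.10 to -3.82 with a pseudocount of 5, outside its interval of -8.85 to -3.91. Its 4 reads in Setd5+/- weigh less there. Nr4a3 changed sign when samples were left out in turn, being above 0 only without Setd5+/- replicate 2 (0.17) and lowest at -0.72, and Egr2 ranged from -5.55 to -4.11. The count of members at least 2-fold lower was 3 under a minimum mean of 50 normalized counts, because fewer genes pass, 7 at 1.5-fold, 5 at 4-fold and 6 in the other alternatives run. Genes at least 2-fold higher and lower numbered 3141 and 2400 with no filter, 1032 and 588 with a mean of at least 50, 3201 and 2521 at 1.5-fold and 481 and 302 at 4-fold, by the construction of these settings. Scaling moved the median of all genes by under 0.1 on the log2 scale. No paired analysis was possible because the 3 samples of a genotype are parts of 1 library and no test was made. With 1 library a genotype, depth narrows counting error only, and it limits most the genes with few reads in Setd5+/-, Egr3, Arc and Egr2, and Nr4a3 in both.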
